A study of Mus musculus with 19 samples.

Results

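Genes of the DNA methylation machinery were followed in a mouse embryonic stem cell line treated with a splicing inhibitor and in the blastoids grown from it. The 10 genes, of 54352 symbols in the count tables, were taken from a list of names: the methyltransferase genes Dnmt1, Dnmt3a and Dnmt3b, their cofactor genes Dnmt3l and Uhrf1, the oxygenase genes Tet1, Tet2 and Tet3, the glycosylase gene Tdg, and Dppa3. All 10 had enough counts to be tested in every comparison. TT2 cells, grown on inactivated mouse embryonic fibroblasts (feeder cells), were kept for 54 h in flat (2D) culture, either untreated (2 libraries, 0 nM) or exposed over the last 6 h to pladienolide B (PlaB) at 20 nM (2 libraries), an inhibitor of the spliceosome that acts on its SF3B subunit complex. Blastoids, cell aggregates that resemble the blastocyst and that the series text calls TTLC-blastoids, were taken from 3D microwells on days 1, 2, 3, 4 and 5, with 3 libraries a day, and all carry the label of the same PlaB treatment. Blastoids from untreated cells were not analysed here. Polyadenylated RNA was amplified by Smart-seq2. No label says that replicate libraries came from separate cultures, so the p-values measure the spread between these libraries, which may be technical.

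DNA methylation in mammals is the addition of a methyl group to cytosine, mostly at CpG, a cytosine followed by a guanine. Dnmt3a and Dnmt3b place new methyl groups, helped in germ cells and embryonic stem cells by the catalytically inactive Dnmt3l, while Dnmt1, brought to newly copied DNA by Uhrf1, restores the mark after replication. The Tet enzymes oxidise methylcytosine, and Tdg excises the most oxidised forms so that base excision repair can put back an unmodified cytosine. Dppa3 (also called Stella) shields the maternal genome from Tet3 in the zygote and keeps Uhrf1 away from chromatin. The early embryo loses most of its methylation before the blastocyst stage and regains it at implantation.

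The 2D libraries held between 2515381 and 4118725 counts and the blastoid libraries between 3684787 and 7607021, and levels are given as CPM (counts scaled to a common library size) after TMM scaling over all 19 libraries. The fewest reads fell on Tet3, with 11 to 102 counts in a library, whereas Tet1 had 574 to 3144. Most of the 8 embryonic stem cell markers were present in the control cells. Their means were 20500 CPM for Dppa5a, 908 for Tdgf1, 305 for Zfp42, 193 for Nanog, 109 for Sox2 and 45.5 for Esrrb. Pou5f1, however, stood at only 0.52 CPM there and Utf1 at 5.94 CPM. Summed over 20 feeder markers, the level was 4415 to 5077 CPM in the controls and 6296 to 8291 with PlaB. It was 438 to 789 CPM on day 1 and 52.7 to 73.5 on day 5. Lox made up most of the control sum (mean of 2598 CPM), and Dcn was the largest part on day 1 (308 CPM). Tagln and S100a4 were at 0 on all days, but in 2D culture too they had no more than 1.18 CPM on average. The part of feeder RNA in the results was not tested, and in such bulk samples fewer cells of a type and less RNA per cell cannot be told apart. Fold changes moved with the GC content of transcripts in each comparison: from genes under 42% GC to genes over 54% GC, the median log2 fold change went from -0.54 to 1.04 for PlaB against control and from 0.55 to -0.86 for day 5 against day 1. GC content was 43.7% for Tet1, 45.4% for Tet2, 45.3% for Dppa3 and 47.9% for Tdg, and lay between 51.9% and 54% for the other 6 members. Values with this trend removed are therefore given wherever they alter the call of a fold change.

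The promoter windows of the 3 Tet genes are shown because these genes moved in opposite directions across the blastoid days. Each is the stretch of 250 bases before the RefSeq transcript start (GRCm38.p6), written on the gene's strand with each CpG in capitals: chr10:62887325-62887574 (minus strand) for Tet1, chr3:133544391-133544640 (minus strand) for Tet2 and chr6:83441679-83441928 (minus strand) for Tet3.
Tet1: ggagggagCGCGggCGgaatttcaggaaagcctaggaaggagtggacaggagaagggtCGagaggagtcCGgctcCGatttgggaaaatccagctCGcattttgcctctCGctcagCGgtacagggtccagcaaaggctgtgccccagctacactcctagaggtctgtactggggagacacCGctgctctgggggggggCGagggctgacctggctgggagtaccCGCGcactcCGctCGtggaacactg
Tet2: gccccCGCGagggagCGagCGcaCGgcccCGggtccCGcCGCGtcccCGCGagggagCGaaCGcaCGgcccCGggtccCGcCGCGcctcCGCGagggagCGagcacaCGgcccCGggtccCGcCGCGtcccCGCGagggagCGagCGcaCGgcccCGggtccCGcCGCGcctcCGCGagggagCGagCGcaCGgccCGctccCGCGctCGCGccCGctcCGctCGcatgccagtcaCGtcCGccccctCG
Tet3: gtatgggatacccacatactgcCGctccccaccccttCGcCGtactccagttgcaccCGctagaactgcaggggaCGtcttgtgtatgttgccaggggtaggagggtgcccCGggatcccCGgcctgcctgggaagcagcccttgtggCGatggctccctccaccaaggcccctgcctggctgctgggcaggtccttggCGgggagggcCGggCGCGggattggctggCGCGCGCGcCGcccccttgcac
The Tet2 window held 51 CpG, a number reached by 0.07% of the 32851 windows of that table, where the median was 6. Tet3 had 17 and Tet1 had 15, reached by 23.52% and 27.31% of windows. All 3 windows lie within the gene spans given below, and the counts do not show which start was used.

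The windows of Dnmt1 and Uhrf1 are shown next because both contain TTTCGCGC, a form of the E2F motif, which was present on either strand in 0.26% of all windows. The capitals mark this motif, or its reverse complement GCGCGAAA, in chr9:20952624-20952873 (minus strand) for Dnmt1 and chr17:56304063-56304312 (plus strand) for Uhrf1.
Dnmt1: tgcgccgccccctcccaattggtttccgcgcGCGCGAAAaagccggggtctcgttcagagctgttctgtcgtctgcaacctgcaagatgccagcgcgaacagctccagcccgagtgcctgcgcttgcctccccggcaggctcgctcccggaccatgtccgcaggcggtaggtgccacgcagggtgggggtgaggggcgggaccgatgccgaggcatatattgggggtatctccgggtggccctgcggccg
Uhrf1: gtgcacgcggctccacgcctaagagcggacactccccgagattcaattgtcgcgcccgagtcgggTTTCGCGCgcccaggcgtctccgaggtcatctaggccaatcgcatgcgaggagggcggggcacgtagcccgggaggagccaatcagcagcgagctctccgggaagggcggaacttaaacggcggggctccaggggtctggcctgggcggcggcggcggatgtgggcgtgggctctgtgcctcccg
Both genes had further RefSeq starts whose windows lacked these letters, and no other member's window had them. Each of the windows shown lies inside its gene span given below, downstream of another start of the same gene. For that other start the stretch is transcribed sequence and not sequence before the start. TTTGGCGC, another form of the E2F motif held by 0.42% of all windows, was searched too and was in no window of a member. The octamer ATGCAAAT, which 1.6% of all windows held on either strand, was in none of them either. The GC box GGGCGG (32.74% of all windows) and the E-box CACGTG (6.02%) were also searched, and each was in windows of several members. The counts per gene do not show which start was used.

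In GENCODE M21 (GRCm38), Dnmt1 lies at chr9:20907209-20959888, Uhrf1 at chr17:56303321-56323486, Dnmt3a at chr12:3806007-3914443, Dnmt3b at chr2:153649450-153687730 and Dnmt3l at chr10:78041947-78063622. Tet1 lies at chr10:62804570-62908996, Tet2 at chr3:133463679-133545139, Tet3 at chr6:83362373-83459084, Tdg at chr10:82629828-82650799 and Dppa3 at chr6:122626410-122630272. All are protein-coding, and their counts cover all exons of a gene, so that isoforms, such as those of Dnmt1 and Dnmt3a from alternative starts, were not told apart. On the opposite strand, exons of Aire overlap 2.24% of the Dnmt3l exons, with 565 counts for Aire in all libraries and 17201 for Dnmt3l.

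Per kilobase of exon, Dppa3 had the highest level of the 10 in all 7 groups, between 161.0 and 215 CPM per kb on average, and Tet3 the lowest, between 0.131 and 0.703. Dnmt3a was next to last in all 7 groups. The length used joins the exons of all transcripts of a gene (16.64 kb for Dnmt3a and 5.37 kb for Tdg), and the order depends on it. In CPM, Dnmt3a was above Tdg in the control (31.0 against 14.3) and on day 3 (55.2 against 29.1). It was below Tdg on day 4 (36.1 against 40.3). Dnmt3l had rank 2 in every group but the control, where Tet1 (33.6 CPM per kb) and Dnmt3l (31.9) overlapped between libraries. Tet1 went from rank 2 in the control to rank 6 on day 5 (9.08 CPM per kb), where its libraries overlapped with those of Dnmt3b above it (11.8) but not with those of Tdg below it (4.36). Dnmt1 went the other way, from rank 7 in the control (3.99 CPM per kb) to rank 4 on day 5 (12.8). Uhrf1 had rank 3 in 6 of the groups, but its libraries overlapped with those of Tet1 in PlaB-treated cells and on days 1, 2 and 3.

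**Figure D1:**
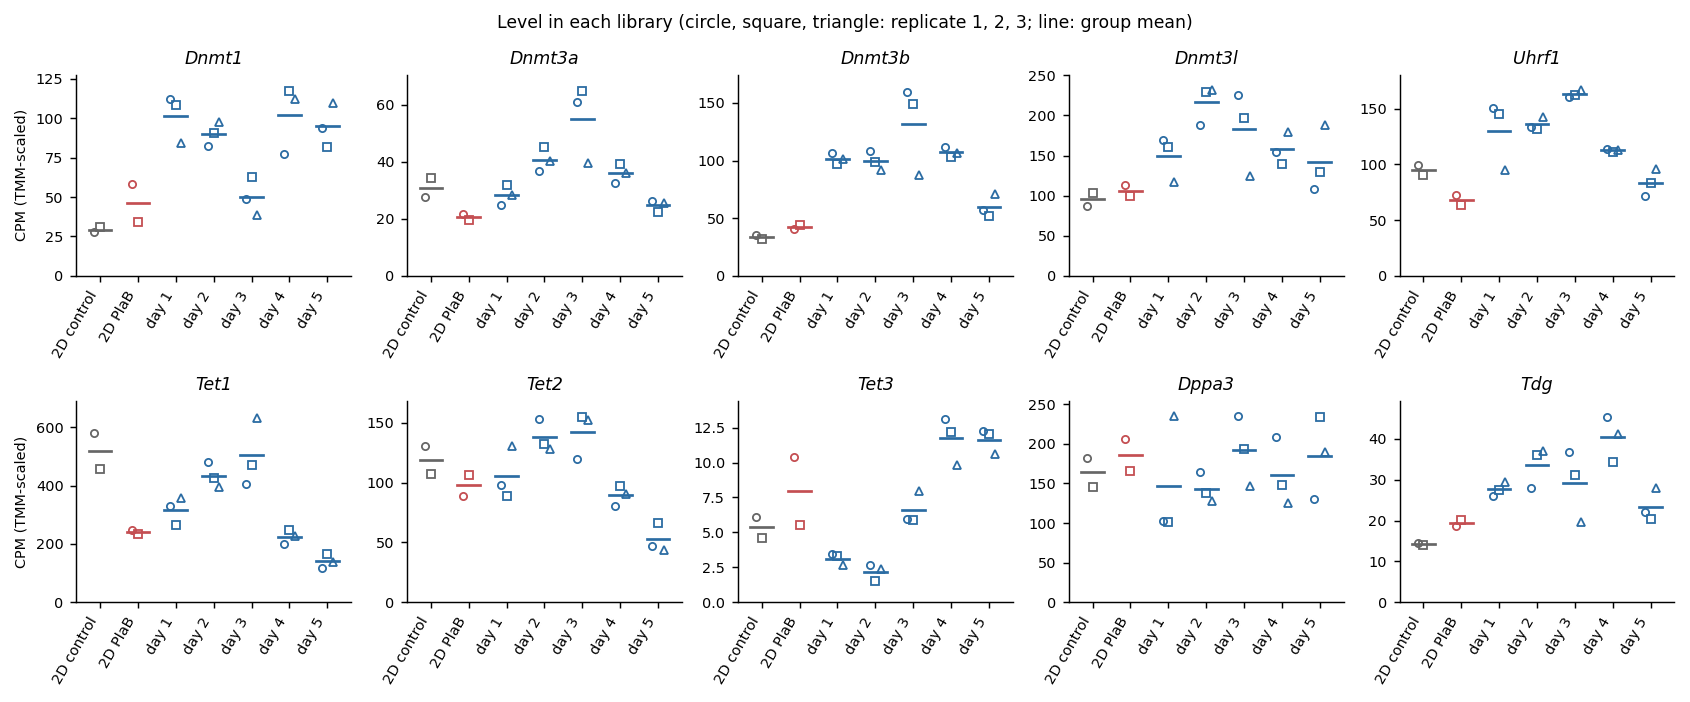
Level of each member in every library (y axis, TMM-scaled CPM, linear and starting at 0; x axis, the 7 groups), with 1 symbol per replicate and a line at the group mean. Tet1 fell to 140.4 CPM and Tet2 to 52.5 CPM on day 5, Dnmt1 dipped to 50.1 CPM on day 3, and Tet3 was lowest on day 2.

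The first comparison asked what 6 h of PlaB did to these genes in 2D culture. Tet1, the main oxygenase gene of embryonic stem cells, fell 2.15-fold, Uhrf1 also fell, and Dnmt1 rose, while the other 7 members did not pass the test. These 3 calls of 10 stand beside 51.7% of all 11183 genes tested (25.9% higher and 25.8% lower), so the share of members called was no larger than the background. The median log2 fold change was 0.17 over the members and 0.00 over all genes.

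Tet1 had 582 and 458 CPM in the control libraries and 249 and 235 CPM with PlaB, and the groups did not overlap. Its log2 fold change was -1.11 ± 0.14 SE, adjusted p = 2.07e-08 (edgeR quasi-likelihood test, Benjamini-Hochberg adjustment over all genes). The call held in all 11 alternatives run, among them leaving out each of the 4 libraries, and the change was -0.73, adjusted p = 2.02e-05 with the GC trend removed. Tet2 (130.5 and 107 CPM in control, 89.0 and 106 with PlaB) did not pass (-0.29 ± 0.16 SE, adjusted p = 0.138). Tet3 had 6.12 and 4.59 CPM in control and 10.4 and 5.53 CPM with PlaB, and did not pass (0.55 ± 0.49 SE, adjusted p = 0.358). Of the 3 oxygenase genes, Tet1 alone passed in this comparison, but the differences between the 3 changes were not tested.

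Uhrf1, whose protein recognises hemimethylated DNA at the replication fork, had 99.1 and 90.1 CPM in control and 72.6 and 63.6 CPM with PlaB, without overlap. Its log2 fold change was -0.48 ± 0.17 SE, adjusted p = 0.0191, and it was -1.13, adjusted p = 7.78e-07 with the GC trend removed. Dnmt1 had 28.0 and 30.8 CPM in control and 58.3 and 34.4 CPM with PlaB. The treated Dnmt1 libraries were far apart, with replicate 1 high and replicate 2 close to the controls. The log2 fold change of Dnmt1 was 0.65 ± 0.24 SE, adjusted p = 0.0219, but it was -0.05, adjusted p = 0.888 with the GC trend removed, and the call was lost without replicate 1 of the PlaB cells (0.22, adjusted p = 0.562) or either control library. Uhrf1 lost its call without replicate 1 of the control (adjusted p = 0.125) or replicate 2 of the PlaB cells (adjusted p = 0.155), and with DESeq2 neither gene passed (adjusted p = 0.105 for Dnmt1 and 0.0835 for Uhrf1).

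Among the genes of new methylation, Dnmt3a had 27.8 and 34.3 CPM in control and 21.6 and 19.8 CPM with PlaB. These libraries did not overlap, yet the gene did not pass (-0.59 ± 0.26 SE, adjusted p = 0.0582), whereas with the GC trend removed it passed (-0.99, adjusted p = 0.00158). Dnmt3b (0.33 ± 0.22 SE, adjusted p = 0.214) and its cofactor gene Dnmt3l (0.16 ± 0.16 SE, adjusted p = 0.435) did not pass either. With the GC trend removed the sign of Dnmt3l turned, to -0.45, adjusted p = 0.0165, and Dppa3 passed (0.45, adjusted p = 0.012, against 0.18 ± 0.15 SE, adjusted p = 0.341 without the correction). Tdg had 14.5 and 14.0 CPM in control and 18.6 and 20.2 CPM with PlaB, which was not a call (0.44 ± 0.31 SE, adjusted p = 0.236). The mitochondrial share of counts was 9.14% and 9.38% in the PlaB libraries and 5.74% and 6.18% in the controls. Neither the cause of this difference nor its part in these values was tested.

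Treated cells before and after the first day of aggregation were compared in a fit of all 19 libraries. Dnmt1, Dnmt3b and Uhrf1 were higher on day 1 and Tet3 was lower, which makes 4 of 10 members beside 38.9% of 16304 genes (21.9% higher, 17.0% lower). Dnmt3b, with 41.0 and 43.9 CPM in PlaB-treated 2D cells, had 107, 96.8 and 101 CPM on day 1, far above the 2D range. Its log2 fold change was 1.26 ± 0.25 SE, adjusted p = 0.000279. Uhrf1 went from 72.6 and 63.6 CPM to 150.2, 145 and 95.2 CPM, with no overlap (0.93 ± 0.22 SE, adjusted p = 0.00175). Dnmt1 reached 112, 109 and 84.1 CPM, all above the PlaB libraries (1.13 ± 0.27 SE, adjusted p = 0.00168). Its call was lost without replicate 2 of the PlaB cells (adjusted p = 0.0752). Tet3 had 3.42, 3.29 and 2.64 CPM on day 1, all below the PlaB libraries (-1.34 ± 0.39 SE, adjusted p = 0.00778), and its call rested on replicate 1 of the PlaB cells, since it was -0.79 with an adjusted p of 0.26 without it. All 4 calls held with the GC trend removed. Culture format, count table, feeder share and time cannot be told apart in this comparison. The summed S-phase list, 22 genes of DNA replication, stood at 2242 to 2297 CPM with PlaB in 2D and at 3623 to 3805 CPM on day 1, and its part in the values of Dnmt1 and Uhrf1 was not tested.

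Over the blastoid days, 7 of the 10 members differed among days beside 68.0% of 15121 genes, and Dnmt3l (adjusted p = 0.15), Dppa3 (0.474) and Tdg (0.053) did not pass. With the GC trend removed, 9 members passed that test. No member passed between days 1 and 2, beside 6.96% of genes (1.69% higher and 5.27% lower; DESeq2 and limma-voom also called none, and 3 members, Dnmt3a, Dnmt3l and Tet1, had an unadjusted edgeR p of at most 0.05). From day 2 to 3, 2 members changed beside 25.6%, 1 higher (12.0% of genes) and 1 lower (13.5%). From day 3 to 4, 6 members changed beside 27.9%, of which 2 were higher (15.6% of genes) and 4 lower (12.3%). That split depended on the setting, with 3 higher and 1 lower under total counts only and 0 higher and 5 lower with the GC trend removed. From day 4 to 5, 4 members changed beside 28.6%, all lower (14.5% of genes). Neighbouring comparisons share the libraries of the day between them, so the fall from a high day 3 and the value before it are not independent.

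**Figure D2:**
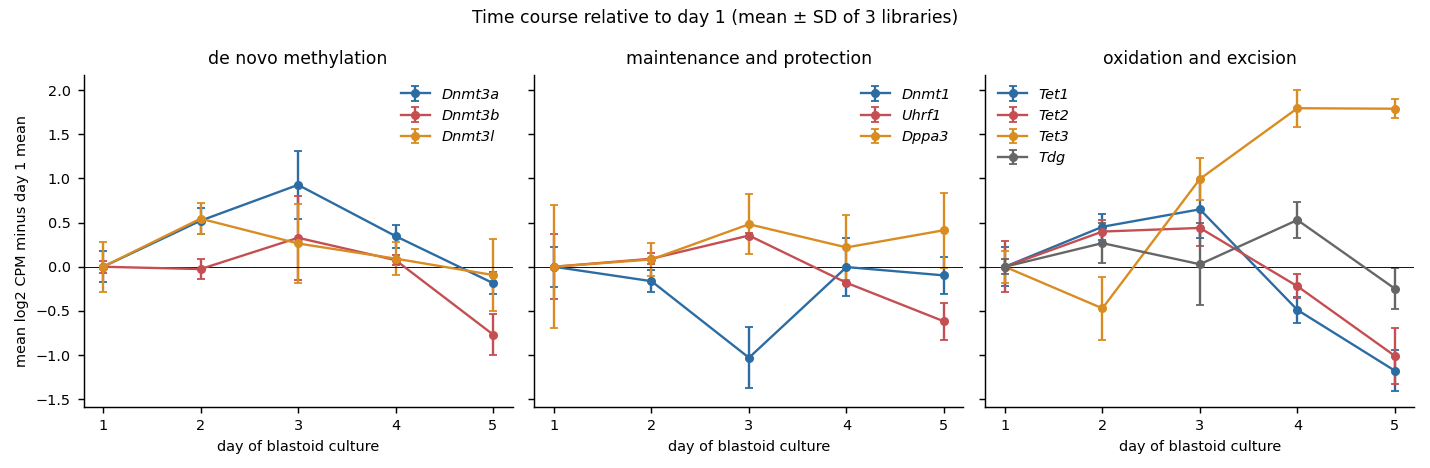
Mean log2 CPM of each member minus its day 1 mean (y axis) on days 1 to 5 of blastoid culture (x axis), with the SD of 3 libraries, in panels for new methylation, maintenance and protection, and oxidation and excision. Tet1 and Tet2 run down together after day 3 while Tet3 runs up from day 2, and Dnmt1 dips on day 3 where Uhrf1 does not.

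Dnmt1 and Uhrf1, which act together at the replication fork, parted on day 3. Dnmt1 had 82.1, 90.4 and 97.8 CPM (day 2), 48.5, 62.8 and 38.9 (day 3) and 77.5, 117 and 112 (day 4). All 3 libraries of day 3 lay below every library of the other 4 days. The fall from day 2 to 3 was -0.83 ± 0.22 SE, adjusted p = 0.00954, and the rise from day 3 to 4 was 1.02 ± 0.22 SE, adjusted p = 0.002. Both steps kept their sign but not their call with the GC trend removed (-0.35, adjusted p = 0.181, then 0.42, adjusted p = 0.116). Uhrf1 in turn had 134, 132 and 143 CPM (day 2), 161, 162 and 167 (day 3) and 114, 111 and 113 (day 4), so that day 3 was its highest day. The step from day 2 to 3 did not pass for Uhrf1 (0.29 ± 0.19 SE, adjusted p = 0.288), except with the GC trend removed (0.77, adjusted p = 0.0048). Uhrf1 then fell to day 4 (-0.55 ± 0.20 SE, adjusted p = 0.0407), a call that was lost in 14 of 22 alternatives. Among these were total counts only, no filter on low counts and leaving out any 1 of 11 of the libraries, where the adjusted p reached 0.115.

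Because the transcripts of Dnmt1 and Uhrf1 have nearly the same GC content (54% and 53.7%), their ratio per kilobase was also formed. Uhrf1 over Dnmt1 went from 2.20 ± 0.21 (day 1) and 2.62 ± 0.17 (day 2) to 5.88 ± 1.49 (day 3), then back to 1.98 ± 0.49 (day 4) and 1.54 ± 0.22 (day 5), each as mean ± SD with n = 3. The day 3 libraries, from 4.47 to 7.43, overlapped with those of no other blastoid day. In 2D culture the ratio was 5.60 ± 0.74 in control cells and 2.68 ± 0.74 with PlaB (SD, n = 2), again without overlap. No test was run on the ratios, and S-phase genes stood at 2315 to 3329 CPM in sum on day 3 against 3498 to 4107 CPM on day 2, a difference whose part in the ratio was not tested. The mitochondrial share of replicate 3 of day 3 was 13.5%, against 5.50% and 4.71% in its other two libraries, and the ratio was 5.74 in replicate 1, 4.47 in replicate 2 and 7.43 in replicate 3.

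**Figure D3:**
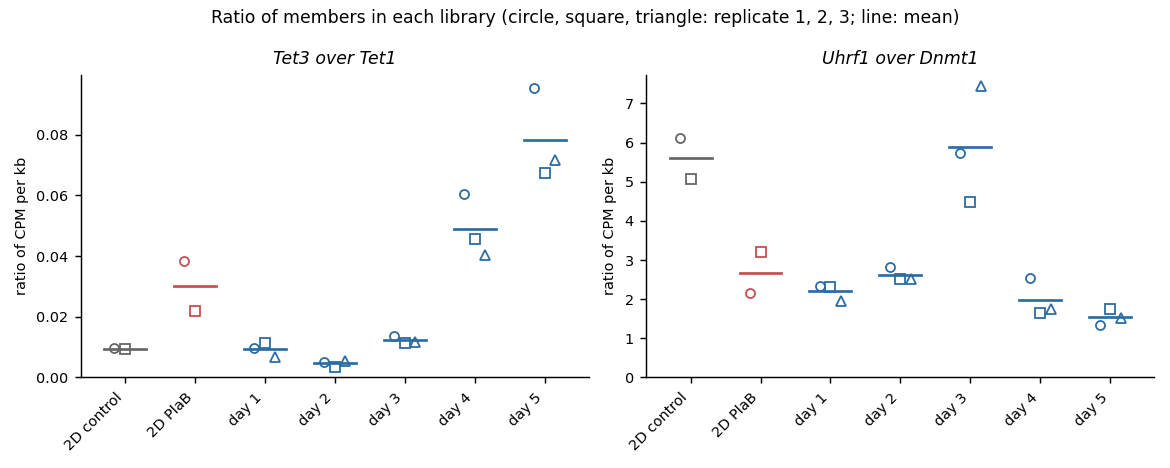
Ratio of Tet3 to Tet1 (left) and of Uhrf1 to Dnmt1 (right) in each library, from CPM per kb of exon (y axis, linear and starting at 0) in the 7 groups (x axis), with a line at the mean. The Tet3 ratio is highest on day 5 (0.0781) and the Uhrf1 ratio is high in control cells (5.60) and on day 3 (5.88).

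Dnmt3b, the methyltransferase gene most active around implantation, passed in no step before day 4 and then fell. It had 111, 103 and 107 CPM (day 4) and 56.9, 52.0 and 71.0 CPM (day 5), without overlap. The log2 fold change from day 4 to 5 was -0.80 ± 0.21 SE, adjusted p = 0.00759, and the call held in all 22 alternatives. Against day 1 the fall was -0.70 ± 0.21 SE, adjusted p = 0.00948, but -0.26, adjusted p = 0.239 with the GC trend removed. The highest values of Dnmt3b were those of replicates 1 and 2 of day 3 (159.8, 149 and 87.0 CPM over the day), and without replicate 3 of that day the step from day 2 passed as higher (0.64, adjusted p = 0.0162). With the GC trend removed that step passed too (0.83, adjusted p = 0.00344), as did the fall from day 3 to 4 (-0.80, adjusted p = 0.0034).

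Dnmt3a, the other methyltransferase for new sites, had 24.8, 31.7 and 28.4 CPM (day 1), 61.1, 65.0 and 39.5 (day 3) and 26.4, 22.5 and 25.6 (day 5). The day 3 libraries lay above all of those of days 1 and 5. It differed among days (adjusted p = 6.14e-04), and of the neighbouring steps the fall from day 3 to 4 passed (-0.63 ± 0.21 SE, adjusted p = 0.0309). That call was lost in 7 of 22 alternatives, among them total counts only and no filter on low counts. It was also lost without either of replicates 1 and 2 of day 3 or any library of day 4, where the adjusted p reached 0.138. Without replicate 3 of day 3, 2 further steps of Dnmt3a passed as higher, from day 1 to 2 (0.56, adjusted p = 0.0478) and from day 2 to 3 (0.64, adjusted p = 0.0298). The latter step also passed with the GC trend removed (0.79, adjusted p = 0.00712). Day 5 against day 1 did not pass for Dnmt3a (-0.12 ± 0.22 SE, adjusted p = 0.657).

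Dnmt3l, which stimulates both enzymes, did not pass in any comparison as fitted. It had 169, 161 and 117 CPM (day 1), 187, 229 and 232 (day 2) and 108, 129 and 189 (day 5). Day 2 was above day 1 in every library (0.56 ± 0.24 SE, adjusted p = 0.175), and that step passed only with the GC trend removed (0.81, adjusted p = 0.0152). From day 1 to 5 the difference was -0.01 ± 0.24 SE, adjusted p = 0.981, and 0.45, adjusted p = 0.0458 with the GC trend removed. That setting also called the fall of Dnmt3l from day 3 to 4 (-0.74, adjusted p = 0.00811).

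Tet1 and Tet2 fell at both steps between day 3 and day 5, and Tet3 rose at both steps between day 2 and day 4. Tet1 had 329, 266 and 359 CPM (day 1), 407, 472 and 633 (day 3), 201, 248 and 227 (day 4) and 119, 165 and 137 (day 5). Day 3 lay wholly above day 4, and day 4 wholly above day 5. The log2 fold changes of Tet1 were -1.18 ± 0.22 SE, adjusted p = 0.000716 from day 3 to 4, -0.65 ± 0.22 SE, adjusted p = 0.033 from day 4 to 5 and -1.11 ± 0.22 SE, adjusted p = 0.000354 from day 1 to 5. The first and the last of these were called in all 22 alternatives, whereas the step from day 4 to 5 was lost in 5, among them the replicate block (adjusted p = 0.0509) and leaving out replicate 1 of day 5 (0.144). Per kilobase, Tet1 on day 5 (9.08 CPM per kb) was still above Tet2 (3.11) and Tet3 (0.696).

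Tet2, an oxygenase that lacks the CXXC DNA-binding domain of its relatives, had 98.1, 88.8 and 130.4 CPM (day 1), 120.2, 155 and 153 (day 3), 80.8, 97.6 and 90.8 (day 4) and 47.1, 66.4 and 44.0 (day 5). As for Tet1, these last 3 days did not overlap. Tet2 fell from day 3 to 4 (-0.68 ± 0.21 SE, adjusted p = 0.0219) and from day 4 to 5 (-0.74 ± 0.22 SE, adjusted p = 0.0144), and by day 5 it was below day 1 (-0.95 ± 0.22 SE, adjusted p = 0.00118). The first step was lost in 6 of 22 alternatives. It did not pass with total counts only, with no filter on low counts or with the GC trend removed (-0.47, adjusted p = 0.0949). Nor did it pass without replicate 2 of day 3 (adjusted p = 0.0745), replicate 1 of day 4 (0.0751) or replicate 3 of day 4 (0.0648). The second did not pass without replicate 1 (0.0684) or replicate 3 of day 5 (0.0583). The change from day 1 to 5 held in all 22 alternatives.

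Tet3, the oxygenase gene of the oocyte and zygote, had 3.42, 3.29 and 2.64 CPM (day 1), 2.65, 1.53 and 2.37 (day 2), 5.94, 5.86 and 7.99 (day 3), 13.1, 12.2 and 9.84 (day 4) and 12.2, 12.0 and 10.6 (day 5). All libraries of days 3 to 5 lay above all of days 1 and 2. The rise from day 2 to 3 was 1.61 ± 0.32 SE, adjusted p = 0.00191, and that from day 1 to 5 was 1.96 ± 0.31 SE, adjusted p = 3e-05, both called in all 22 alternatives. The step from day 3 to 4 (0.82 ± 0.28 SE, adjusted p = 0.0358) was lost in 9 of 22, with an adjusted p of 0.574 with the GC trend removed. Days 4 and 5 differed by 0.02 ± 0.28 SE, adjusted p = 0.969. Tet3 stayed the lowest of the 10 members per kilobase all the same. Its ratio to Tet1 per kilobase was 0.0093 ± 0.0024 on day 1, 0.0047 ± 0.0012 on day 2 and 0.078 ± 0.015 on day 5 (SD, n = 3). The GC trend was left in this ratio, and Tet3 and Tet1 differ in GC content (53.4% and 43.7%).

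The 12 trophectoderm markers are genes of the outer layer of the blastocyst. Their sum was 328 to 485 CPM on day 1 and 60.1 to 95.5 CPM on day 3. It was 1000.4 to 1101 CPM on day 4 and 1210 to 2270 CPM on day 5. Krt18 and Krt8 made up most of it on days 4 and 5, with means of 877 and 338 CPM on day 5. Cdx2 and Elf5 were at or under 0.93 CPM on average in every group, and Eomes had 4.34 CPM on day 1 and 2.60 on day 5. Of the 8 embryonic stem cell markers, Dppa5a made up most of the sum, with means of 12747 CPM on day 3 and 6411 on day 5. The others differed among themselves: Zfp42 had 409 and 378 CPM, Nanog 151 and 38.2, and Sox2 178 and 22.2. The feeder sum, 244 to 576 CPM on day 3, was 24.8 to 148 CPM on day 4. The part of these markers in the values of the Tet genes was not tested.

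Tdg, which removes the oxidised bases that the Tet enzymes make, had 45.4, 34.4 and 41.2 CPM (day 4) and 22.0, 20.4 and 27.8 (day 5), without overlap. It fell between these days (-0.75 ± 0.23 SE, adjusted p = 0.0208), though the call was lost without replicate 1 or 3 of day 4 or replicate 1 or 2 of day 5, where the adjusted p reached 0.0824. Over all days Tdg did not pass (adjusted p = 0.053), but it did with DESeq2 (0.0429), with the GC trend removed (0.0361) and without replicate 3 of day 3 (0.014). Exons of Glt8d2 overlap 6.83% of the Tdg exons on the opposite strand, and Glt8d2 had 33 counts in all libraries against 3161 for Tdg.

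Dppa3 kept a high level with a wide spread. Its values were 103, 101 and 236 CPM (day 1), 235, 193 and 147 (day 3) and 131, 234 and 190.0 (day 5). Replicate 3 of day 1 was above both of its fellow libraries by more than the whole range of day 2. From day 1 to 5 the change was 0.40 ± 0.30 SE, adjusted p = 0.28, and without replicate 3 of day 1 it was 0.87 with an adjusted p of 0.0159. The same library decided the step from 2D culture to day 1, where Dppa3 did not pass (-0.34 ± 0.32 SE, adjusted p = 0.415) but was -0.87 with an adjusted p of 0.0212 without it. Reads of its pseudogene Dppa3-ps amounted to 38 counts in all libraries against 17450 for Dppa3.

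Between the first and the last day, Tet3 rose and Dnmt3b, Uhrf1, Tet1 and Tet2 fell, which is 5 of 10 members beside 51.0% of all genes (25.5% higher and 25.5% lower). The median log2 fold change was -0.15 over the members and -0.02 over all genes. Uhrf1 had 150.2, 145 and 95.2 CPM (day 1) and 71.6, 82.8 and 96.2 (day 5), and replicate 3 of day 1 lay inside the day 5 range. Its change was -0.57 ± 0.20 SE, adjusted p = 0.0196, and -0.05, adjusted p = 0.839 with the GC trend removed. The call of Uhrf1 was also lost without replicate 1 (adjusted p = 0.0688) or replicate 2 of day 1 (0.0581), or replicate 1 of day 5 (0.0963). Dnmt1 did not pass (-0.03 ± 0.21 SE, adjusted p = 0.905), but with the GC trend removed it passed as higher (0.53, adjusted p = 0.0219). Scaling by total counts in place of TMM kept these 5 calls and no other, but moved the median of all genes to -0.35 and the split of called genes from 3863 higher and 3855 lower to 2623 higher and 5145 lower.

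**Figure D4:**
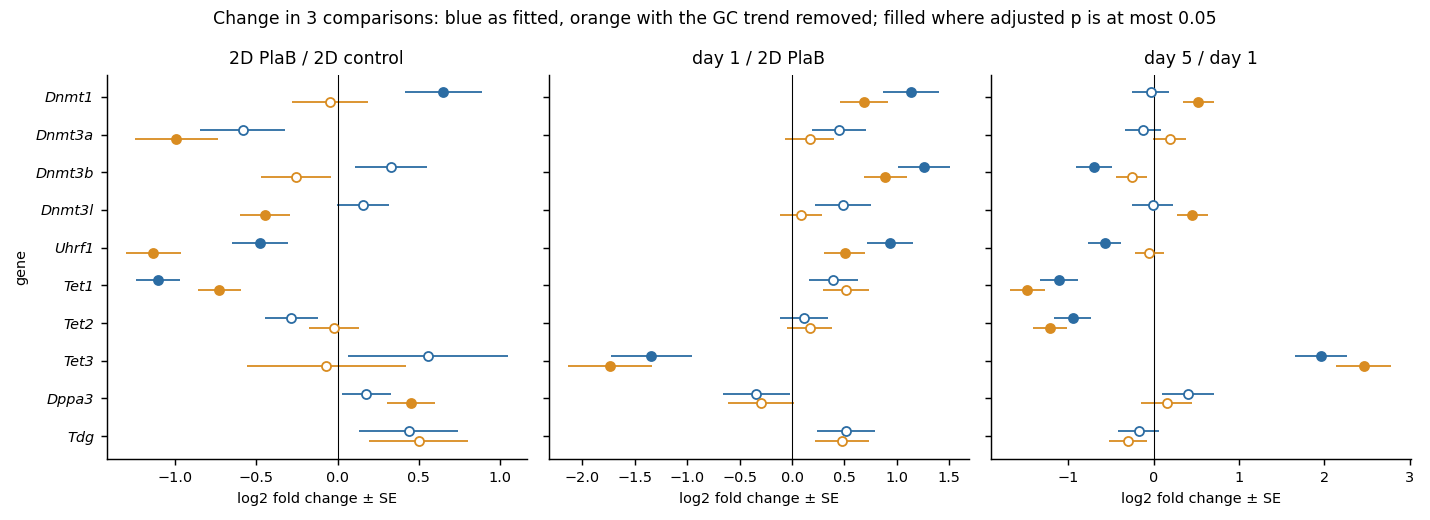
Log2 fold change ± SE of each member (x axis; genes on the y axis) for PlaB against control in 2D, day 1 against PlaB in 2D, and day 5 against day 1, as fitted (blue) and with the GC trend of each library removed (orange), filled where the adjusted p is at most 0.05. Tet1 keeps its fall in the left and right panels under both, whereas Dnmt1 in the left panel goes from 0.65 to -0.05.

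Among themselves, the members most alike over the 19 libraries were Tet1 and Tet2, with a root mean square difference of 0.27 in centred log2 CPM, followed by Dnmt3l and Tdg (0.30) and by Dnmt3a and Uhrf1 (0.30). The members least alike were Tet1 and Tet3 (1.37). The GC trend was left in these values, and GC content was 43.7% for Tet1, 45.4% for Tet2 and 53.4% for Tet3. The part of GC content in the distances was not tested. Tet3 was the only member whose group means spanned at least 4-fold, with 5.37 between days 4 and 2. Of 7316 genes with a mean of at least 10 CPM, those closest to the Tet3 pattern were Ptpn14, a tyrosine phosphatase gene (0.34), Alkbh5, an RNA demethylase gene (0.38), and Apaf1, of the apoptosome (0.40), where the spread of Tet3 itself was 0.86. These distances are descriptions over libraries that share their groups and carry no test.

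Genes that work with the 10 members were described in 7 lists, and values in parentheses are log2 fold changes ± SE with edgeR's adjusted p. With PlaB, 10 of 18 tested maintenance and targeting partners fell and 2 rose (median log2 fold change -0.37, beside 0.00 for all genes), where 25.8% of all genes fell and 25.9% rose. Hells, a remodeller needed for methylation of repeats, went from 855 ± 67.8 to 335 ± 9.51 CPM (SD) (-1.35 ± 0.13, adjusted p = 5.07e-11). The histone demethylase gene Kdm1b (-2.61 ± 0.40, adjusted p = 1.5e-06) and the imprint-protecting Zfp57 (-2.04 ± 0.36, adjusted p = 1.03e-05) fell as well, and Ehmt2, a histone methyltransferase gene, rose (2.15 ± 0.45, adjusted p = 0.00015). Of 9 tested methyl-CpG readers 5 fell and none rose (median -0.77), including Mbd4 (-1.43 ± 0.25, adjusted p = 1.15e-05) and Mbd2 (-1.32 ± 0.27, adjusted p = 0.000124). With the GC trend removed 3 of the readers were called, all lower.

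Among genes of methyl donor and 2-oxoglutarate supply, 8 of 23 rose and 4 fell with PlaB, together near the 51.7% of all genes that changed. With the GC trend removed 5 rose and 7 fell. Mat2a, which makes S-adenosylmethionine, the methyl donor, had the smallest adjusted p of its list, from 383 ± 13.1 to 49.8 ± 3.44 CPM (SD) (-2.94 ± 0.15, adjusted p = 2.63e-17), and its regulatory partner Mat2b fell too (-1.85 ± 0.16, adjusted p = 5.67e-12), while Idh2 rose (2.28 ± 0.20, adjusted p = 6.39e-12). In base excision repair, 4 of 12 rose and 2 fell, and the smallest adjusted p were those of the stress-responsive Gadd45g (3.80 ± 0.27, adjusted p = 4.44e-14) and Gadd45b (2.58 ± 0.22, adjusted p = 4.31e-12). Of 8 tested Tet partners 1 rose (Ddb1, 0.92 ± 0.15, adjusted p = 5.98e-06) and 4 fell, among them Sin3a (-1.22 ± 0.21, adjusted p = 1.06e-05) and Ogt, which adds N-acetylglucosamine to proteins and binds Tet enzymes (-0.68 ± 0.14, adjusted p = 8.4e-05). Germline genes that promoter methylation silences were divided, with 4 of 21 higher and 6 lower (4 and 3 with the GC trend removed), a share near that of all genes: Rpl10l, a retrocopy of Rpl10 with which it can share reads, rose (1.85 ± 0.21, adjusted p = 2.69e-09), and Dazl fell (-1.21 ± 0.17, adjusted p = 1.76e-07). In the S-phase list 8 of 20 rose and 3 fell (6 and 5 with the GC trend removed), with Gins2 higher (2.71 ± 0.26, adjusted p = 1.14e-09) and Pcna, the clamp that Dnmt1 binds, lower (-0.85 ± 0.13, adjusted p = 9.98e-07).

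From day 1 to 5, 7 of 18 maintenance partners rose and 5 fell (median 0.14), beside 51.0% of all genes changed (25.5% in each direction), and with total counts only 4 rose and 7 fell. Zfp57 went from 81.0 ± 13.4 to 7.02 ± 2.11 CPM (SD) (-3.47 ± 0.29, adjusted p = 3.13e-08), Cdca7, the partner of Hells, fell (-0.97 ± 0.19, adjusted p = 0.000371), and Uhrf2, the paralogue of Uhrf1, rose (1.22 ± 0.24, adjusted p = 0.000298). Of 10 readers 5 rose and 1 fell, with 2 and 2 under total counts only, and the one that fell was Mbd3 of the NuRD complex, which went from 106 ± 15.9 to 11.4 ± 5.15 CPM (SD) (-3.15 ± 0.31, adjusted p = 1.97e-07), while Mbd2 rose (1.80 ± 0.33, adjusted p = 0.000136). Among Tet partners 3 of 8 rose and 2 fell, with Cul4b, a ubiquitin ligase scaffold gene, going from 199.7 ± 52.4 to 952 ± 288 CPM (SD) (2.32 ± 0.26, adjusted p = 7.67e-07). With the GC trend removed, or with total counts only, 3 of these 8 were called.

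Of 25 germline genes 8 rose and 3 fell from day 1 to 5 (median -0.01), beside 51.0% of all genes changed. The excess of rises did not hold: 6 rose and 9 fell with total counts only, and 6 rose and 6 fell with the GC trend removed. Sycp3, of the meiotic chromosome axis, went from 8.30 ± 3.06 to 118 ± 51.1 CPM (SD) (3.87 ± 0.35, adjusted p = 6.93e-08), and Taf7l also rose (1.93 ± 0.27, adjusted p = 1.03e-05), whereas Rpl10l fell (-2.67 ± 0.33, adjusted p = 2.48e-06). In methyl donor supply 8 of 23 rose and 6 fell (5 and 9 with total counts only), with the threonine dehydrogenase gene Tdh falling (-3.57 ± 0.38, adjusted p = 4.03e-07) and Amd1 rising (1.81 ± 0.23, adjusted p = 2.95e-06). In base excision repair 2 of 14 rose and 4 fell. The smallest adjusted p was that of Gadd45b, which rose (1.79 ± 0.26, adjusted p = 1.61e-05). Ung (-2.13 ± 0.34, adjusted p = 4.39e-05) and Xrcc1 (-2.03 ± 0.37, adjusted p = 0.00013) were among those that fell. The S-phase list had 6 of 21 higher and 9 lower (median -0.35; 1 and 12 with total counts only), with Chaf1b (-2.85 ± 0.34, adjusted p = 1.45e-06) and Ccne1 (-2.09 ± 0.30, adjusted p = 1.25e-05) among those that fell and Ccne2 (1.54 ± 0.25, adjusted p = 4.66e-05) among those that rose.

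**Figure D5:**
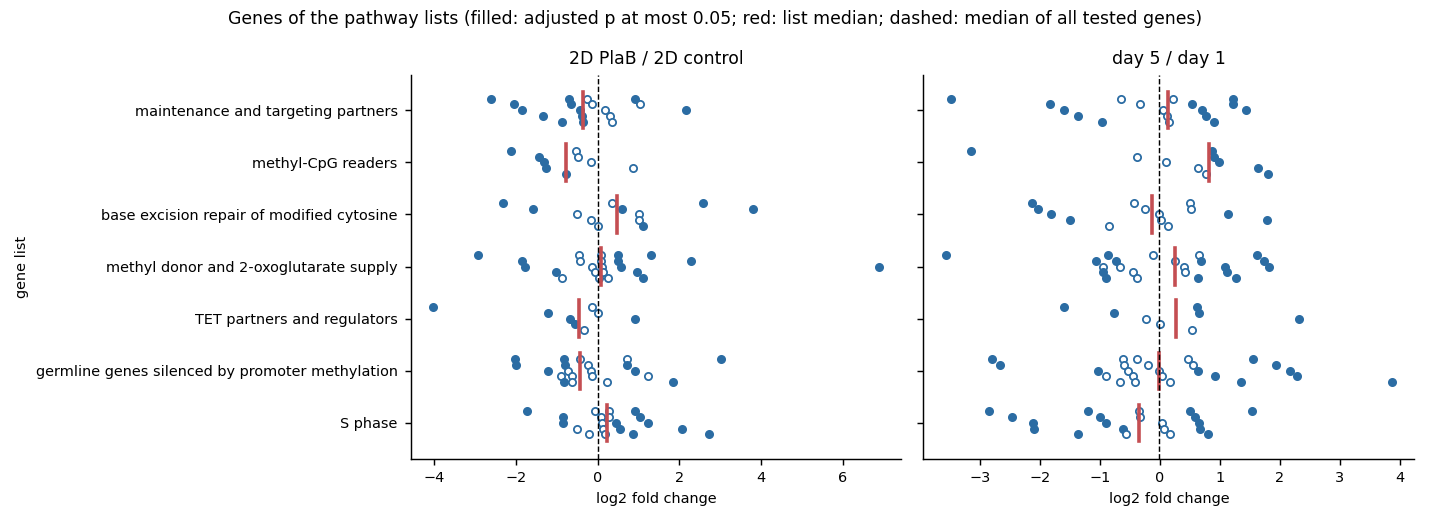
Log2 fold change of each tested gene in the 7 lists (y axis) for PlaB against control (left) and day 5 against day 1 (right), filled where the adjusted p is at most 0.05, with the list median in red and the median of all tested genes as a dashed line. The methyl-CpG readers lie to the left with PlaB (median -0.77) and to the right on day 5 (median 0.82).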

How the data were processed

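The deposited values are raw read counts for each gene symbol, in 1 table of 2D culture and 1 of blastoids. The submitters' processing notes name STAR 2.7.10b, HTSeq 0.13.5 and the build mm10. For the annotation release and strandedness of the counting, the sources used here give nothing. Libraries were grouped by their labels, and columns were matched to samples by title. Of 54352 symbols, 53669 matched 1 gene of GENCODE M21, which gave exon lengths and GC content.

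Genes were kept by filterByExpr (minimum count 10, minimum total 15) and tested with edgeR 4.0.16 (TMM scaling, robust quasi-likelihood F test, Benjamini-Hochberg adjustment over all genes tested, threshold 0.05). The 4 2D libraries, the 15 blastoid libraries and, for day 1 against PlaB in 2D, all 19 libraries were fitted, with biological coefficients of variation of 0.127, 0.258 and 0.25. In counts simulated for PlaB against control (10764 genes), edgeR recovered 65 of 107 genes changed by 1 in log2 and 86 of 93 changed by 2. In those for day 5 against day 1 (14373 genes) it recovered 25 of 107 and 82 of 93. Recovery was lowest for day 1 against PlaB in 2D (14868 genes), with 7 of 91 and 70 of 109. These simulated counts held few changed genes, the same spread for every gene and no GC trend. In the data 51.7% of genes were called for PlaB against control, so the rates do not give the power of the tests. Alternatives were RLE size factors, total counts only, DESeq2 1.42.0, limma-voom (limma 3.58.1), no filter on low counts, a replicate block, a GC trend removed from each library (loess, span 0.3) and leaving out each library. The 10 genes and the 7 lists were chosen with earlier results of these data known. From each list, up to 4 genes with the smallest adjusted p in a comparison could be named. The genes nearest in pattern were looked for only where a member's group means spanned at least 4-fold, by the root mean square difference of centred log2 CPM (prior count 2). Promoter windows came from RefSeq (GRCm38.p6), which had one or more for 9 of the 10 members. R 4.3.3 and Python 3.11.15 were used.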

Additional observations from a re-analysis of the deposited data

How the results depend on the processing

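Of the values of the 10 genes under the alternatives, 1587 kept their side of the threshold, 65 lost and 34 gained a call, and 4 turned in sign with a call before or after, all with the GC trend removed: Dnmt1 (-0.047) and Dnmt3l (-0.45) for PlaB against control, and Dnmt1 (0.53) and Dnmt3l (0.45) for day 5 against day 1. A further 45 fold changes that were called under neither setting also turned in sign. The cause was not tested.

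For PlaB against control, 3 members were called, but 1 with DESeq2, 5 with the GC trend removed, and 1 to 2 when a library was left out, with 1 remaining without replicate 1 of the control. In the latter fits the lone library of a group was assumed to vary like the others. Between days 1 and 2 none was called, but 1 with the GC trend removed and 0 to 1 when a library was left out, the 1 being Dnmt3a without replicate 3 of day 3. From day 2 to 3 there were 2, but 4 with the GC trend removed and 2 to 4 when a library was left out (4 without replicate 3 of day 3). From day 3 to 4 there were 6, but 2 without the filter on low counts and 2 to 6 when a library was left out, with 2 or 3 without replicate 1 or 2 of day 3 or any library of day 4. From day 4 to 5 there were 4, and 1 to 5 when a library was left out, with 1 without replicate 1 of day 5 and 2 without replicate 3 of day 4 or of day 5. Day 5 against day 1 gave 4 to 6 and the test over all days 7 to 9 when a library was left out. Day 1 against PlaB in 2D gave 4, 8 with total counts only, and 3 to 5 when a library was left out.

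Replicate numbers did not pair the libraries: deviations of same-numbered libraries correlated at -0.01 in 2D and at a median of -0.04 in blastoids. With a replicate block 3, 0, 2, 4, 3, 5, 7 and 3 members were called, in the order of the comparisons above. Total counts only moved the split of genes called higher and lower from 255 and 797 to 156 and 1373 (day 2 against 1), from 2361 and 1863 to 2879 and 1297 (day 4 against 3), from 2133 and 2188 to 1361 and 3004 (day 5 against 4), and from 3569 and 2768 to 4810 and 1954 (day 1 against PlaB in 2D). Depth limits Tet3 most.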
